A study of Mus musculus with 29 samples.

Results

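Neuropeptide genes encode precursors that are cut into small signalling peptides in secretory granules. The 8 genes described here, Npy, Gal, Vip, Cartpt, Tac1, Penk, Adcyap1 and Sst, are those whose peptides are best known from sympathetic neurons, chromaffin cells and the tumours that arise from them. They were chosen by name, and every probe set that the array's annotation assigns to exactly 1 of these symbols was taken, which gave 10 probe sets of 45101 on the array and 8 of the 18193 genes that could be measured. Tac1 and Adcyap1 had 2 probe sets each, the others 1, and each gene was read from its probe set of highest mean.

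The samples came from TH-MYCN mice of strain 129X1/SvJ. In this model a MYCN transgene is driven by the tyrosine hydroxylase promoter, which is active in sympathoadrenal cells, and all groups carry it, bone marrow donors included, as far as the labels say. There were 17 caspase-8 deficient and 7 wild-type caspase-8 primary abdominal neuroblastomas, and total bone marrow from 3 caspase-8 deficient and 2 wild-type mice. The labels give neither the allele behind the deficiency, nor the age of the mice, nor whether each sample came from a separate animal, so p-values reflect only how much the samples at hand vary, which may be technical in part. All values are log2 signals of Affymetrix arrays after robust multi-array averaging (RMA), a method that compresses differences at low signal, and the number of arrays limits the precision.

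Sympathetic neurons release noradrenaline together with peptides. Neuropeptide Y (NPY) is the main peptide of noradrenergic neurons and chromaffin cells, and vasoactive intestinal peptide (VIP) marks the cholinergic ones. PACAP, the product of Adcyap1, is a transmitter through which preganglionic fibres excite chromaffin cells, and it signals through receptors that raise cyclic AMP. A precursor becomes active peptide only after prohormone convertases, carboxypeptidase E (Cpe) and the amidating enzyme Pam have acted on it in granules that are packed by the granins.

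The labelled tissues matched their markers. The mean over 13 catecholamine and sympathoadrenal genes ran from 9.31 to 10.10 in the 24 tumours and from 4.2 to 4.37 in the 5 marrow samples. Of 10 erythroid and granulocyte genes, 0 had a difference above 0 between tumours and marrow. Of these, 9 were called lower in tumours (limma adjusted p under 0.05), beside 42.2% of all genes. Arrays of a group correlated at 0.972 to 0.993, and tumour arrays with marrow arrays at 0.806 to 0.865. Casp8 itself averaged 5.62 ± 0.44 in deficient tumours (SD, n = 17) and 5.88 ± 0.57 in wild-type tumours (SD, n = 7), and the ranges overlapped. No source used here gives the part of Casp8 that the deficiency removes, so this gene checks no label. Tumour titles fall into a lower number series (10 to 21, with 7 deficient and 3 wild-type tumours) and a higher one (100 and above, with 10 deficient and 4 wild-type tumours), and all marrow samples are numbered with the higher series.

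Cartpt had the largest difference between tumour and marrow of the 8 genes. It encodes the CART peptides, which are found in sympathetic ganglia and the adrenal medulla as well as in the brain. Its log2 signal ran from 7.76 through a median of 10.14 to 11.002 in the deficient tumours and from 9.0 through 9.89 to 11.88 in the wild-type tumours. Deficient marrow gave 3.88, 3.84 and 4.18, and wild-type marrow 4.28 and 4.53. Every tumour was thus above every marrow sample, and the lowest tumour stood at 7.76 against a highest marrow value of 4.53. Such a complete separation upwards was seen for 20.9% of all genes, since the 2 tissues differ widely. With both genotypes weighted equally, tumours exceeded marrow by 5.74 on the log2 scale (SE 0.43, limma adjusted p = 4.82e-13), a 53.6-fold difference with a 95% interval of 29.2 to 98.2. Fewer cells that express a gene and less RNA per cell cannot be told apart in bulk samples, here or below.

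Adcyap1, the PACAP precursor, was also higher in tumours, and it was the most variable of the 8 genes among them. The deficient tumours ran from 4.26 through a median of 5.50 to 7.84, and the wild-type tumours from 4.38 through 6.34 to 9.30. Deficient marrow gave 3.94, 3.83 and 3.82, and wild-type marrow 4.46 and 3.74. Of the 24 tumours, 21 lay above all marrow samples and the other 3 within the marrow range. The difference was 2.33 (SE 0.59, limma adjusted p = 0.000872), or 5.04-fold. The second probe set gave 1.84 (SE 0.63, limma adjusted p = 0.0104 over all 34945 probe sets), and the 2 probe sets followed each other over the tumours with a Pearson r of 0.97.

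The picture for Npy was different, because marrow gave a strong signal too. Deficient tumours ran from 7.47 through a median of 9.20 to 12.07 and wild-type tumours from 7.30 through 10.40 to 11.73. Deficient marrow gave 9.21, 9.05 and 8.23, and wild-type marrow 8.28 and 9.27. The tissues therefore overlapped, with 14 tumours above all marrow samples, 4 below all of them and the rest between. The difference of 1.09 (SE 0.61, 95% interval -0.16 to 2.34) did not pass the test (limma adjusted p = 0.107). It passed without wild-type tumour 1, the lowest of all tumours (1.33, limma adjusted p = 0.0277), and with only the tumours of the higher title series (0.999, limma adjusted p = 0.047). In that series deficient tumours averaged 8.84, against 8.83 in deficient marrow. Wild-type tumours averaged 10.76 there, against 8.77 in wild-type marrow. Of the catecholamine genes checked beside Npy, Th, the tyrosine hydroxylase gene, ran from 9.33 to 11.91 in tumours and from 3.79 to 4.70 in marrow, without overlap. Dbh, the gene of the enzyme that makes noradrenaline, ran from 6.49 to 9.37 in tumours and from 6.02 to 6.55 in marrow, and its ranges overlapped through wild-type tumour 1.

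Gal, Tac1 and Penk gave moderate to low signals. Galanin, the product of Gal, is a peptide of injured and developing sympathetic neurons. Gal ran from 4.87 through 5.34 to 6.26 in deficient tumours and from 5.20 through 5.50 to 5.63 in wild-type tumours. Deficient marrow gave 4.33, 4.90 and 5.34, and wild-type marrow 5.05 and 4.98. In 14 of 24 tumours the signal exceeded all marrow values and in none was it below all of them. The difference of 0.47 (SE 0.17) was called (limma adjusted p = 0.0142), but not after the arrays were quantile normalized again (0.37, limma adjusted p = 0.0501), nor without wild-type marrow 2 (0.448, limma adjusted p = 0.0559) or deficient marrow 1 (0.333, limma adjusted p = 0.0817).

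Tac1, the precursor of substance P and neurokinin A, was near its lowest signal in most samples and stood out in a few tumours. It ran from 2.95 through 3.21 to 5.15 in deficient tumours and from 3.09 through 3.73 to 5.61 in wild-type tumours. Deficient marrow gave 3.29, 2.96 and 3.03, and wild-type marrow 2.98 and 3.04. Only 6 of the 24 tumours exceeded 4 and only 2 exceeded 5, while no marrow sample reached 4. The difference of 0.65 (SE 0.30) missed the threshold (limma adjusted p = 0.0537). It passed after repeated quantile normalization (0.79, limma adjusted p = 0.0189) and with the higher title series alone (0.554, limma adjusted p = 0.00344). It also passed without deficient tumour 5 (0.592, limma adjusted p = 0.0372) and without wild-type tumours 2, 3 or 7 (0.68 to 0.72, limma adjusted p 0.0302 to 0.0474). In the higher series deficient tumours averaged 3.23, against 3.09 in deficient marrow. Wild-type tumours averaged 3.98 there, against 3.01 in wild-type marrow. The second Tac1 probe set did not follow the first: its tumours lay between 2.40 and 3.06 and its marrow samples between 2.66 and 2.85, and the r between the probe sets was 0.05.

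Penk, the precursor of the enkephalins, which chromaffin cells store with catecholamines, did not pass the test between the tissues. It ran from 3.45 through 4.04 to 6.07 in deficient tumours and from 3.46 through 4.11 to 4.94 in wild-type tumours. Deficient marrow gave 4.55, 4.02 and 4.13, and wild-type marrow 4.40 and 4.39. A single tumour, deficient tumour 8 at 6.07, stood above the rest, and 10 of 24 tumours were below all marrow samples. The difference was -0.20 (SE 0.27, limma adjusted p = 0.51), with a 95% interval of -0.75 to 0.35.

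Vip and Sst gave low signals in both tissues, and both were lower in tumours. Vip ran from 2.66 through 2.83 to 3.09 in deficient tumours and from 2.69 through 2.87 to 3.31 in wild-type tumours. Deficient marrow gave 2.71, 2.93 and 3.43, and wild-type marrow 3.27 and 3.49. The ranges overlapped, with 2 of 24 tumours below all marrow samples. Sst, the somatostatin gene, ran from 4.12 through 4.28 to 4.49 in deficient tumours and from 4.08 through 4.30 to 4.49 in wild-type tumours. Deficient marrow gave 4.45, 4.58 and 4.87, and wild-type marrow 5.02 and 4.70. Here 20 of 24 tumours were below all marrow samples. Differences were -0.32 for Vip (SE 0.09, limma adjusted p = 0.00227) and -0.45 for Sst (SE 0.08, limma adjusted p = 7.19e-06). Such small decreases were common at low signal: over the 7144 genes with a mean below 5 the median difference was -0.26, with quartiles of -0.48 and -0.10, and 60.8% of them were called lower. After repeated quantile normalization that median was -0.13, and Vip was no longer called (-0.156, limma adjusted p = 0.127).

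**Figure D1:**
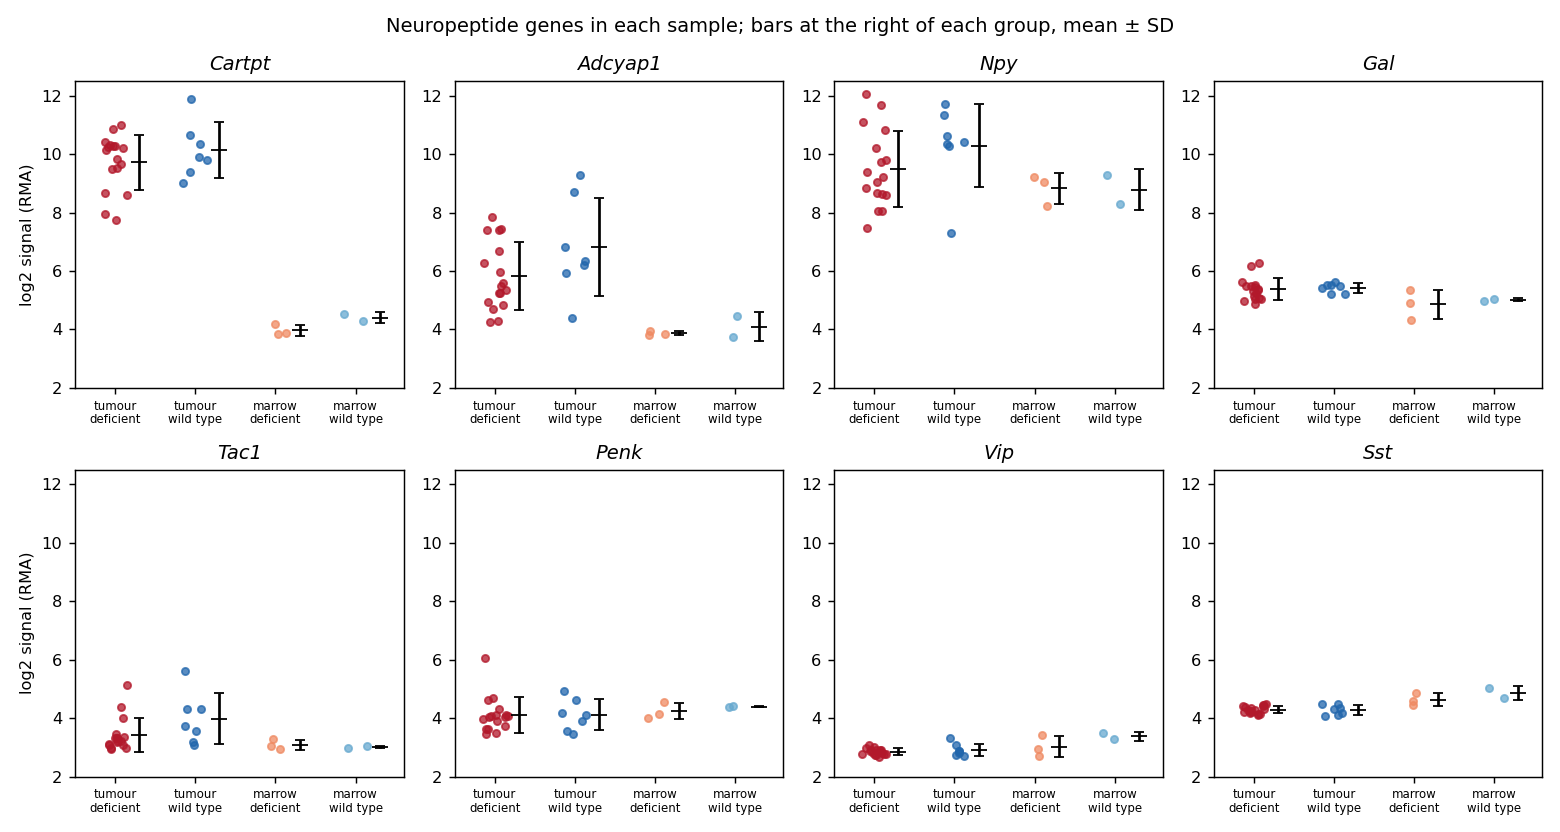
Log2 signal of the 8 genes in each of the 29 samples, with a panel per gene and, from left to right, deficient tumours (n = 17), wild-type tumours (n = 7), deficient marrow (n = 3) and wild-type marrow (n = 2); the bar beside each group is the mean ± SD. Cartpt is high in all tumours and low in all marrow samples, Adcyap1 and Npy are spread widely over the tumours, and Npy is also high in marrow.

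In all, 5 of the 8 genes were called between tumour and marrow, 3 higher (Cartpt, Adcyap1 and Gal) and 2 lower (Vip and Sst). Over all genes 76.4% were called, 34.2% higher and 42.2% lower, so that a count of 5 in 8 is no more than the background. At an unadjusted p under 0.05 the table held 77.7% of genes. By size of difference Cartpt ranked 174 and Adcyap1 1999 of 18193 genes. The median difference of all genes was -0.10 as deposited, -0.05 after repeated quantile normalization and -0.15 with each array centred on its median. The log2 difference between 3′ and 5′ control probe sets, which grows as RNA is degraded, was 0.68 ± 0.15 in tumours (SD, n = 24) and 0.96 ± 0.11 in marrow (SD, n = 5). Its part in these differences was not tested.

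**Figure D2:**
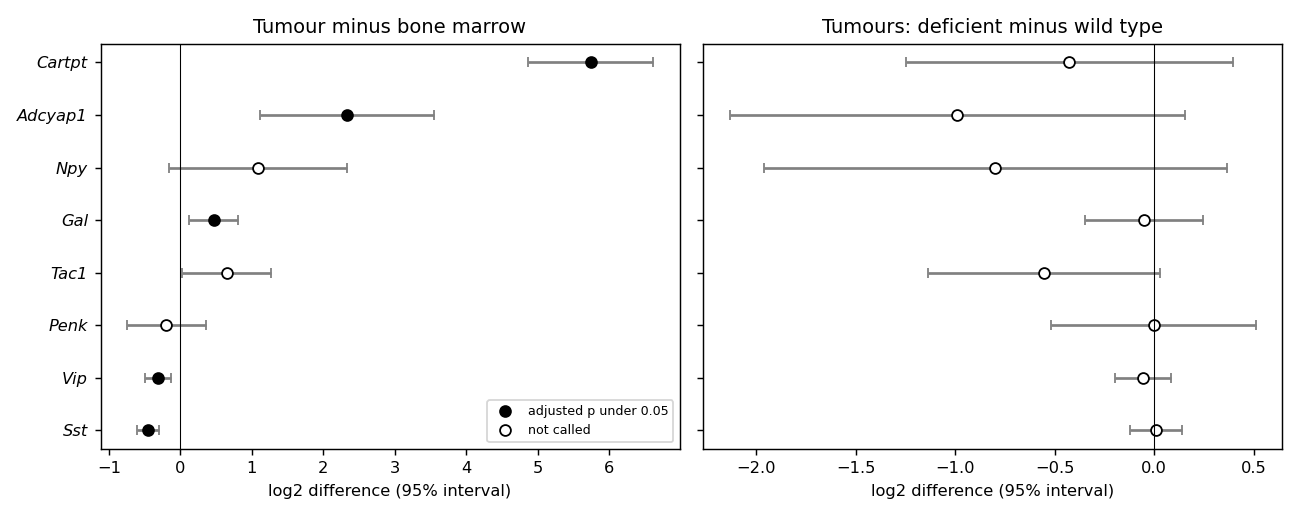
Log2 differences of the 8 genes with 95% intervals from limma, for tumour minus marrow on the left and for deficient minus wild-type tumours on the right, with filled points for an adjusted p under 0.05. Cartpt at 5.74 and Adcyap1 at 2.33 stand far from 0 on the left, and every interval on the right includes 0.

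The sequences just before the starts of these genes were read from RefSeq (GRCm38.p6), which held promoter windows for 7 of the 8 genes, Penk being the exception. They are shown because cyclic AMP, the messenger of PACAP, acts on many neuropeptide genes through the cyclic AMP response element TGACGTCA or its core TGACG, and because MYCN binds the E-box CACGTG. Each motif was searched on both strands of the 300 bases around a start, and TGACG lies within TGACGTCA. Of 32851 such windows, 1.79% held TGACGTCA, 20.8% held TGACG and 7.15% held CACGTG. TGACGTCA was found in Cartpt and in Sst, where it begins 48 bases before the start. The 4 runs below are the 250 bases before the start, 5′ to 3′ on the strand of the gene, with the motifs in capitals (CGTCA is TGACG read on the opposite strand). Cartpt lies at chr13:99900684-99900933 on the minus strand, Sst at chr16:23890845-23891094 on the minus strand, Adcyap1 (the first of 2 starts) at chr17:93198767-93199016 on the plus strand and Tac1 at chr6:7554811-7555060 on the plus strand.
Cartpt: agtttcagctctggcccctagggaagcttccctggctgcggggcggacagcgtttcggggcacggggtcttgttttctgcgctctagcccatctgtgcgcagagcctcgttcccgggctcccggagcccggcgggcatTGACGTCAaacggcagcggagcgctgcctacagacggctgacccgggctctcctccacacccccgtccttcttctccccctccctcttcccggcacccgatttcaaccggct
Sst: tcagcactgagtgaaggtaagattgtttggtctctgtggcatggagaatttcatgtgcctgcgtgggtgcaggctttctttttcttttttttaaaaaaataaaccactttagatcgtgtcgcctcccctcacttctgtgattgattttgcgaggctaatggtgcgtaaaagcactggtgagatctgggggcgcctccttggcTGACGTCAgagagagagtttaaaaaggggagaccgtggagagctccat
Adcyap1: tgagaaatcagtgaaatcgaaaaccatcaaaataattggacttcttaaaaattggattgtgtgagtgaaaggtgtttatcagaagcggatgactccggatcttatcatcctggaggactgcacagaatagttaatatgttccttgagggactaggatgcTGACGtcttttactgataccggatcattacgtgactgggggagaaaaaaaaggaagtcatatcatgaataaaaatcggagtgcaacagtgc
Tac1: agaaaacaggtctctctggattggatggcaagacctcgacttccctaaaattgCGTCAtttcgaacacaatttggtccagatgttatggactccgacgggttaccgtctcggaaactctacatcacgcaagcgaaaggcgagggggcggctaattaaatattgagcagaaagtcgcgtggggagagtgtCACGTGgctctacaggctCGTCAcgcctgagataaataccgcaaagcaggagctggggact

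Cartpt and Sst thus share the full element. Whether it bears on their signals was not tested. The TGACG core alone was found 91 bases before the first start of Adcyap1, 79 bases before that of Vip and on the opposite strand 197 and 43 bases before that of Tac1. Gal held the core only after its start, at base 19. The window of Npy held none of the 3 motifs, and the E-box was found only in Tac1, 61 bases before its start. These matches describe letters in a window and say nothing of binding.

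Genotype was compared within the tumours to ask whether caspase-8 deficiency goes with a change in these peptides. None of the 8 genes passed the test, and neither did any of the 18193 genes (0%), although 583 genes (3.2%) had an unadjusted limma p under 0.05. Adcyap1 averaged 5.82 ± 1.16 in deficient tumours (SD, n = 17) and 6.81 ± 1.68 in wild-type tumours (SD, n = 7), a difference of -0.99 with a 95% interval of -2.13 to 0.15. Npy averaged 9.49 ± 1.31 in deficient tumours and 10.29 ± 1.43 in wild-type tumours, a difference of -0.80 (-1.96 to 0.37). Tac1 differed by -0.55 (-1.14 to 0.03) and Cartpt by -0.43 (-1.25 to 0.40). These 4 intervals reach changes of over 1 log2 unit, so sizeable decreases in deficient tumours are within what the data allow. For Gal (-0.05, -0.35 to 0.25), Vip (-0.06, -0.20 to 0.08), Penk (-0.003, -0.52 to 0.51) and Sst (0.01, -0.12 to 0.14) the intervals were narrower. The limma adjusted p was 0.9997 for each of the 8. Of the second probe sets, that of Tac1 gave 0.06 (-0.08 to 0.19) and that of Adcyap1 -1.12 (-2.34 to 0.09). Single tumours moved the larger differences by over 1.5 times. Npy gave -1.30 without wild-type tumour 1, and Tac1 gave -0.282 without that tumour. Without wild-type tumour 7, Adcyap1 gave -0.575 and Cartpt -0.137. With each tumour left out in turn, the differences ran from -1.30 to -0.559 for Npy, from -1.39 to -0.575 for Adcyap1, from -0.702 to -0.282 for Tac1 and from -0.617 to -0.137 for Cartpt, and none was called.

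The genotype differences were also computed within each title series, an alternative chosen after the data were seen. In the higher series Npy ran from 7.47 through 8.65 to 11.09 in 10 deficient tumours and gave 10.63, 10.40, 11.73 and 10.29 in the wild-type tumours. Of these deficient tumours, 9 lay below all 4 wild-type tumours. The share of all genes so placed was not counted, here or for Tac1 below. In the lower series Npy ran from 9.05 through 10.20 to 12.07 in 7 deficient tumours and gave 7.30, 11.33 and 10.33 in the wild-type ones, and no deficient tumour lay below all of them. The difference was -1.92 in the higher series (unadjusted p = 0.00155, limma adjusted p = 0.622) and 0.76 in the lower series (limma adjusted p = 0.999). The positive value of the lower series rests on wild-type tumour 1, without which it was -0.41 (limma adjusted p = 0.9999). Tac1 gave -0.75 in the higher series (unadjusted p = 0.000734, limma adjusted p = 0.622), with 9 of 10 deficient tumours below all wild-type tumours, and -0.27 in the lower series, where it was 0.55 without wild-type tumour 1. The second Tac1 probe set, at low signal, did not share this: in the higher series it averaged 2.79 in deficient and 2.72 in wild-type tumours. Adcyap1 gave -1.64 in the higher series (limma adjusted p = 0.654) and -0.09 in the lower series; the first was -0.90 without wild-type tumour 7 and -2.53 without wild-type tumour 4, and the sign of the second turned when 1 of 3 tumours was left out (0.0736 to 0.253). An unadjusted p under 0.05 was reached by 7.59% of genes in the higher and by 1.8% in the lower series, and 0% were called in either. The test of the difference between the series was not passed by any of the 8 genes or by any gene at all (0%), with 933 genes (5.13%) at an unadjusted limma p under 0.05. For Npy it gave -2.69 (95% interval -4.74 to -0.63, limma adjusted p = 0.921), and without wild-type tumour 1 it gave -1.51 (95% interval -3.43 to 0.41, limma adjusted p = 0.984). The log2 difference between 3′ and 5′ control probe sets also moved with this contrast. It was 0.773 ± 0.161 in deficient and 0.655 ± 0.102 in wild-type tumours of the higher series (SD, n = 10 and 4), and 0.599 ± 0.107 in deficient and 0.616 ± 0.064 in wild-type tumours of the lower series (SD, n = 7 and 3). Its correlation with each peptide gene over all tumours was computed but is not given here. The part of RNA quality in these genotype differences was not tested.

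**Figure D3:**
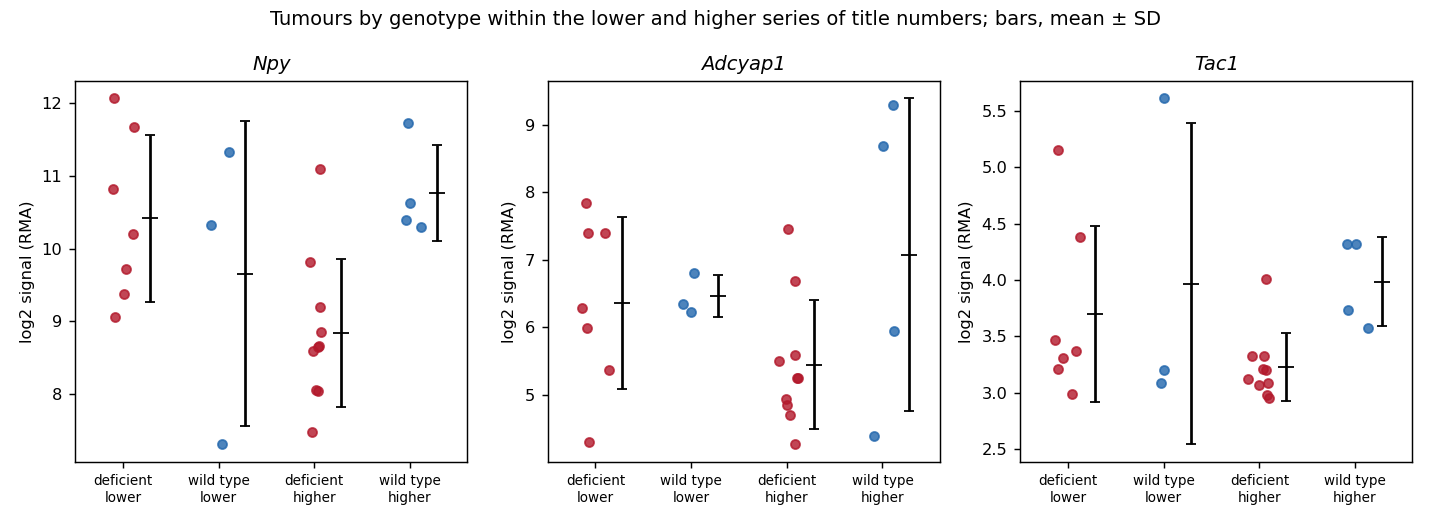
Log2 signal of Npy, Adcyap1 and Tac1 in the 24 tumours, with deficient left of wild-type tumours, first within the lower and then within the higher series of title numbers; each point is a tumour and the bar is the mean ± SD. In the higher series 9 of 10 deficient tumours lie below all wild-type tumours for Npy and for Tac1, and in the lower series the genotypes overlap for all 3 genes. The share of all genes placed like Npy and Tac1 was not counted.

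Endothelial markers were also compared by genotype, and none was called. Their averages were higher in deficient tumours for 8 of 8, with 7 at an unadjusted limma p under 0.05, beside 3.2% of all genes. All 8 also had a greater difference in the higher than in the lower title series, with a median of 0.51 between the series. Over all genes that median was 0.03, and none of the endothelial markers had an unadjusted limma p under 0.05 there. Their mean signal ran from 5.03 to 6.43 in deficient tumours and from 4.56 to 6.03 in wild-type tumours. Over the 24 tumours this mean had an r of -0.38 with Npy (permutation p = 0.0643, adjusted over 136 relations 0.428) and of -0.39 with Tac1 (permutation p = 0.061, adjusted 0.428). The part of endothelial content in the peptide values was not tested.

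In marrow, none of the 8 genes was called by genotype, and 4 of 18193 genes were (0.022%, with 0.0055% higher and 0.0165% lower in deficient marrow), while 737 (4.05%) had an unadjusted limma p under 0.05. Npy averaged 8.83 ± 0.53 in deficient marrow (SD, n = 3) and 8.77 ± 0.70 in wild-type marrow (SD, n = 2). Cartpt was at low signal in both, 3.84 to 4.18 in the deficient and 4.28 to 4.53 in the wild-type samples. The difference of -0.44 was not called (limma adjusted p = 0.9996). The share of all genes whose marrow groups do not overlap was not counted. Xist, a transcript of female cells, was 11.64 to 12.23 in the deficient and 5.11 to 6.20 in the wild-type marrow samples, so that sex and genotype cannot be told apart there. For none of the 8 genes did a difference of the genotype effect between tumour and marrow pass the test of the interaction, which called 0.319% of all genes, with 7.83% at an unadjusted p under 0.05.

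Between the title series themselves, adjusted for genotype, Sst alone was called, higher by 0.16 in the higher series (SE 0.05, limma adjusted p = 0.0396). Over all genes 7.9% were called, and the call for Sst was lost after repeated quantile normalization (limma adjusted p = 0.111). Gal was 5.26 ± 0.22 in the 14 tumours of the higher series and 5.58 ± 0.37 in the 10 of the lower series (SD), a difference of -0.32 (limma adjusted p = 0.104).

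Among the 24 tumours the peptide genes fell into variable and steady ones. Adcyap1 (SD 1.37, rank 53 of 18193 genes) and Npy (SD 1.37, rank 55) were among the most variable transcripts of the table, with a highest tumour 32.9-fold above the lowest for Adcyap1 and 27.2-fold for Npy. Cartpt followed with an SD of 0.95 (rank 179, 17.3-fold), then Tac1 with 0.70 (rank 479) and Penk with 0.58 (rank 881). Gal had an SD of 0.33, Vip of 0.14 and Sst of 0.13, against a median SD of 0.19 over all genes. For Penk and Tac1 the spread came from few tumours: Penk exceeded 5 in 1 tumour and Tac1 in 2.

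The tumours with the highest Npy were mostly not those with the highest Adcyap1, deficient tumour 17 being high in both (11.09 and 7.45). The highest Npy was in deficient tumour 3 (12.07), where Adcyap1 stood at 6.29, and the highest Adcyap1 was in wild-type tumour 7 (9.30), where Npy stood at 10.29 and Cartpt at its own maximum of 11.88. The lowest Npy, 7.30 in wild-type tumour 1, came with the highest Tac1, 5.61. Deficient tumour 8 had the lowest Adcyap1 (4.26), the lowest Npy of the deficient tumours (7.47) and the highest Penk (6.07).

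**Figure D4:**
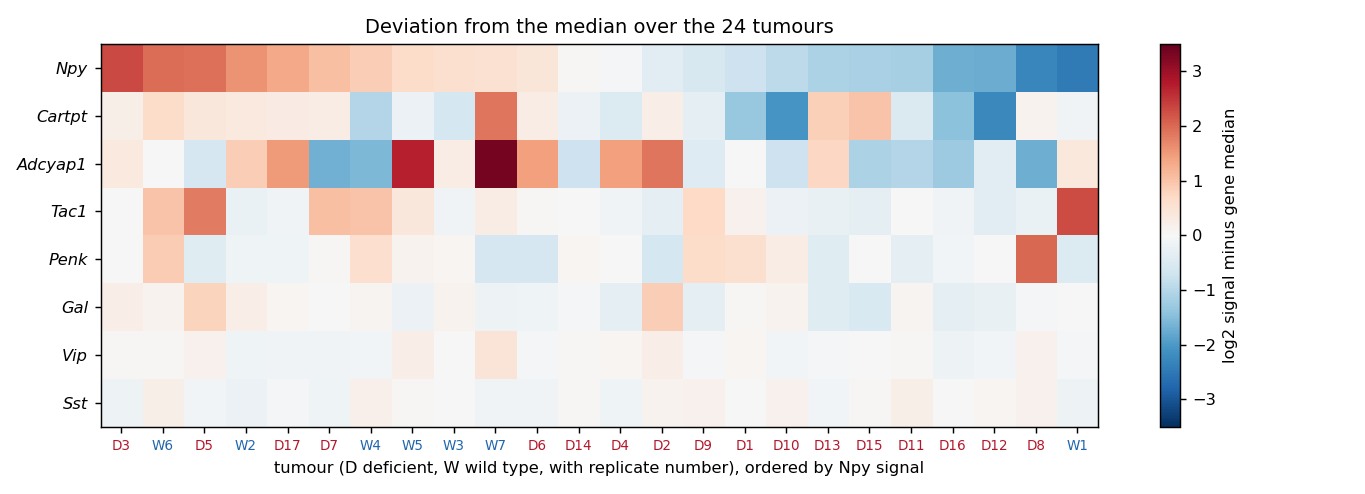
Deviation of each gene's log2 signal from its median over the 24 tumours, with genes in rows and tumours in columns ordered by Npy from high to low (D, caspase-8 deficient; W, wild type; replicate numbers). Tumours high in Adcyap1, such as W7 at 9.30 and W5 at 8.69, are not those highest in Npy, such as D3 at 12.07.

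Over all pairs, the 8 genes showed no correlation that passed the adjustment over 28 pairs. The lowest adjusted values were those of Vip with Adcyap1 (r 0.55, Spearman rho 0.31, permutation p = 0.00492, adjusted 0.0872) and of Penk with Sst (r 0.52, rho 0.51, permutation p = 0.00623, adjusted 0.0872). Without the 2 tumours farthest from the median of the first gene, the r of Vip with Adcyap1 was 0.24, so that it rests on those tumours, and that of Penk with Sst was 0.44. Penk and Sst gave -0.03 in the lower title series and 0.61 in the higher one. Penk and Adcyap1 ran in opposite directions (r -0.49, rho -0.50, permutation p = 0.0152, adjusted 0.142), with -0.40 in the lower and -0.48 in the higher series. For Npy and Adcyap1 the r was 0.27 (adjusted 0.506), with -0.27 in the lower and 0.50 in the higher series.

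The genes most like Npy were sought over the 24 tumours. The 5 genes of highest r with Npy were Vgf (0.94), Galnt6 (0.88), Resp18 (0.87), Slc2a13 (0.87) and Doc2b (0.86). Vgf encodes a granin-like secretory protein induced by nerve growth factor, Resp18 an endocrine granule protein and Doc2b a calcium sensor of vesicle release. For Vgf the r was 0.95 in the lower and 0.93 in the higher title series, and 0.95 in deficient and 0.90 in wild-type tumours. The lowest r were those of Ncoa4 (-0.83), the receptor that directs ferritin to autophagy, Tmem106a (-0.80) and Afap1l2 (-0.80). Being picked as the extremes of 18192 genes, these values are a description. For comparison, the median r of Npy with all genes was -0.08, and 39.9% of genes had an r above 0.

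The mean of the 8 chromaffin markers had an r of 0.88 and a rho of 0.91 with Npy (permutation p = 1e-05, adjusted 0.000907). This p is the smallest that 100000 permutations can give. The adjustment covered 136 relations, of each peptide gene with each gene list and with the 3′ to 5′ control difference. For the chromaffin mean the r was 0.88 without the 2 tumours farthest from the median of Npy, 0.89 in the lower and 0.92 in the higher series. Of the 8 markers, 7 had an r above 0 with Npy, with a median of 0.53. The catecholamine and sympathoadrenal list gave 0.77 for its mean (rho 0.76, permutation p = 2e-05, adjusted 0.000907), with 10 of 13 genes above 0 and a median of 0.24, and 0.78 in the lower and 0.77 in the higher series. Chga and Chgb, the chromogranin genes, are in both lists. The prohormone processing genes gave 0.73 (rho 0.79, permutation p = 7e-05, adjusted 0.00238), with 6 of 8 above 0 and a median of 0.49, and 0.63 and 0.80 in the lower and the higher series. Immediate early genes of neuronal activity gave 0.65 (rho 0.76, permutation p = 0.00034, adjusted 0.00925), with 7 of 8 above 0 and a median of 0.48, and 0.56 and 0.77 in those series.

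Single genes behind these means were Th (r 0.80), which ranked 16 of 18192 genes by its r with Npy, Slc18a1 (0.69), the vesicular monoamine transporter of chromaffin cells, Scg5 (0.68) and Crem (0.74), a cyclic AMP responsive regulator. Other members of the same lists went the opposite way: Ddc (-0.33), Foxq1 (-0.32), Pcsk1 (-0.24), Isl1 (-0.18), Cpd (-0.10), Gata3 (-0.02) and Junb (-0.01). The mean of 35 other neuropeptide precursors had an r of 0.79 with Npy (rho 0.76, permutation p = 2e-05, adjusted 0.000907; 0.87 in the lower and 0.92 in the higher series). That mean rested on few members: 18 of 35 had an r above 0 and the median was 0.05, with Adm (0.85), Pomc (0.82) and Nts (0.76) at the top. Nts and the 7 genes with an r below 0 were named after their values were seen. Among markers of other cells, an r below 0 was found for 6 of 7 fibroblast genes (median -0.50), 7 of 7 T and B cell genes (-0.38), 6 of 8 macrophage genes (-0.36) and 8 of 8 endothelial genes (-0.30), beside a median of -0.08 over all genes. The means of these lists had an r with Npy of -0.47 for fibroblast, -0.45 for T and B cell, -0.19 for macrophage and -0.38 for endothelial genes, and none passed the adjustment (0.277 to 0.722). In the lower and the higher series the fibroblast mean gave -0.60 and -0.51, while the T and B cell mean gave -0.86 and 0.11 and the macrophage mean -0.60 and 0.07. The part of these cells in the values of Npy was not tested.

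**Figure D5:**
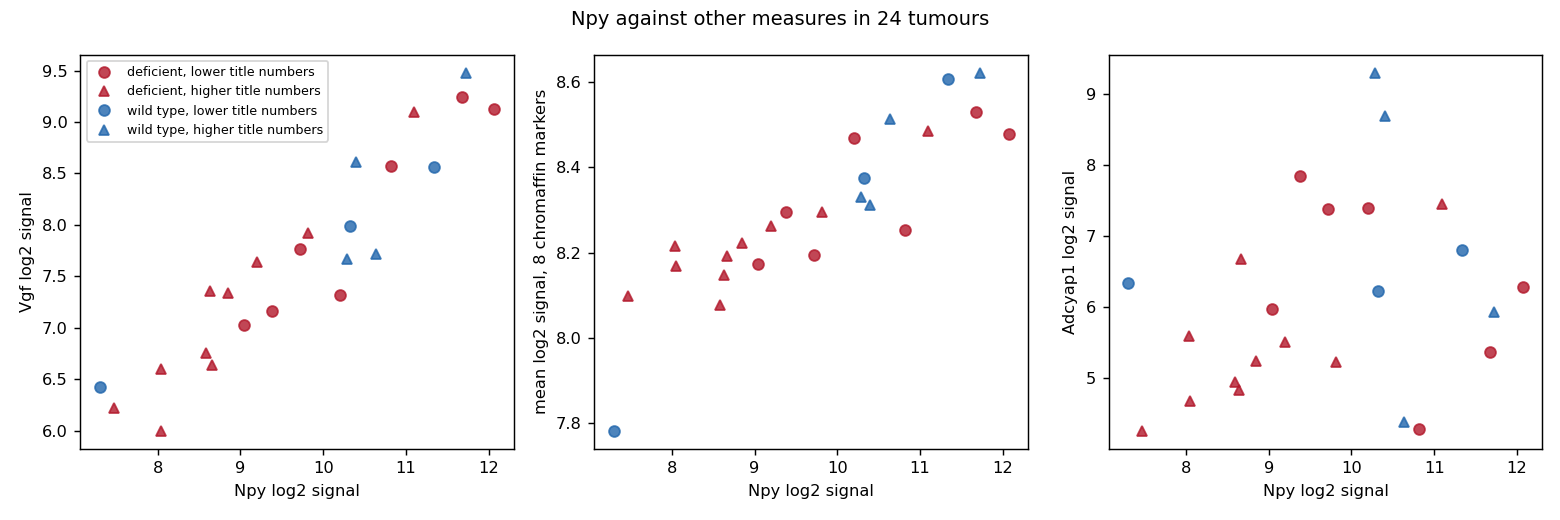
Npy log2 signal on the horizontal axis of each panel against Vgf, the mean of 8 chromaffin markers and Adcyap1 in the 24 tumours, coloured by genotype, with circles for the lower and triangles for the higher title numbers. The points follow a line for Vgf (r 0.94) and the chromaffin mean (r 0.88) but not for Adcyap1 (r 0.27).

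Among the relations of the other 7 peptide genes with a list, the adjustment was passed by 1, that of Sst with the neuropeptide receptors (r 0.58, rho 0.57, permutation p = 0.00174, adjusted 0.0394, and 0.0954 for rho). Both are signals near the low end of the scale, and the r was 0.60 in the lower and 0.33 in the higher series. The genes most like Adcyap1 were Psph (r 0.76), an enzyme of serine synthesis, Fbxw7 (0.74), a ubiquitin ligase subunit that targets MYC proteins, Lrrn3 (0.74), Tvp23a (0.74) and Sorcs2 (0.73), a receptor of the sortilin family. The least like it were Gsg1l (-0.80), an auxiliary subunit of AMPA receptors, Aplp2 (-0.76) and Rsl24d1 (-0.74). For Cartpt the highest were Clcc1 (0.80), Col24a1 (0.76), Ndufc1 (0.73), Stk38l (0.72) and Fyn (0.72), and the lowest Tmem119 (-0.74), Srsf9 (-0.73) and Hdlbp (-0.71).

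Tac1 was most like Ctsl (r 0.71), a protease that also cuts prohormones, Sned1, Hprt, Bach1 and Cmbl (0.69 to 0.71), and least like Dip2c (-0.80), Jade3 (-0.79) and Adcy1 (-0.78), a cyclase that makes cyclic AMP. The r of Bach1 was 0.91 in the lower and 0.05 in the higher series, so it was not shared by both, while Ctsl gave 0.83 and 0.63. Cmbl likewise gave 0.89 and 0.19. Penk was most like Got2, Hs3st4, Lin37, Prkcsh and Mfn2 (0.67 to 0.70), of which Lin37 (-0.02), Mfn2 (0.06), Prkcsh (0.23) and Hs3st4 (0.30) had a low r in the lower series, and least like Ipp (-0.71), Znrd1as (-0.65) and Smc4 (-0.65). Gal was most like Bag6, Daxx, Epb41l3, Lpin2 and Foxp1 (0.70 to 0.75), Vip like Pabpc4l, Slc7a3, Ddah1, Hba-a2 and Ptpn20 (0.62 to 0.73), and Sst like Itga2, Sla2, Trpd52l3, Trim43a and Defa39 (0.78 to 0.84). Several of these, such as Trim43a and Defa39 with tumour means of 3.57 and 5.52, had low signals like the peptide gene itself. For Gal, Vip and Sst the r was also computed without the 2 tumours farthest from the median of the peptide gene. It then ran from 0.40 to 0.62 for Gal, 0.34 to 0.51 for Vip and 0.72 to 0.81 for Sst.

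Most of the prohormone processing genes measured were higher in tumours. Pcsk2, which encodes prohormone convertase 2, was listed but not measured. Of 8 processing genes, 6 were higher in tumours than in marrow and 2 lower, beside 34.2% and 42.2% of all genes, and the median difference was 1.53, against -0.10 over all genes. Cpe, the carboxypeptidase that trims the cut ends, averaged 11.44 ± 0.22 in tumours (SD, n = 24) and 3.52 ± 0.23 in marrow (SD, n = 5), a difference of 7.96 (SE 0.11, limma adjusted p = 7.7e-31). Scg5, the chaperone of prohormone convertase 2, differed by 6.69, and Pcsk1n, an inhibitor of convertase 1, by 3.62. Pcsk1, which encodes convertase 1, was lower in tumours (3.37 ± 0.19, against 3.72 ± 0.24 in marrow, difference -0.33, limma adjusted p = 0.00534), and Cpd, a carboxypeptidase of the general secretory path, was lower too (difference -1.02). Pcsk1 was named after its value was seen. By genotype none of the 8 was called in tumours.

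Receptors for the peptides were nearly all at low signal. Of 20 measured, 2 were higher in tumours and 15 lower, with a median difference of -0.38. Genes of low signal were called lower in 60.8% and had a median of -0.26, and over all genes 42.2% were called lower. The exception in size was Adcyap1r1, which encodes the PAC1 receptor for PACAP. It averaged 9.24 ± 0.33 in tumours (SD, n = 24) and 4.68 ± 0.29 in marrow (SD, n = 5), a difference of 4.51 (SE 0.16, limma adjusted p = 4.51e-21), or 22.7-fold. Its SD over the tumours was 0.33, against 1.37 for the gene of its ligand and a median of 0.19 over all genes. Sstr2, a somatostatin receptor, was higher by 0.60 (5.29 ± 0.56 in tumours, 4.63 ± 0.32 in marrow, limma adjusted p = 0.0364) and was named after its value was seen. The 4 of smallest p also held Sstr3 (-0.60), Oprk1 (-0.50), a receptor for dynorphin, and Galr1 (-0.60), a galanin receptor. The NPY receptor genes measured averaged between 3.02 and 3.91 in tumours and between 3.48 and 4.07 in marrow. No receptor was called by genotype in tumours, and Galr2 (0.15), Oprk1 (0.10), Npy5r (0.16) and Npy1r (-0.10) had the smallest unadjusted p (0.0562 to 0.147, limma adjusted p = 0.9997).

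Of 6 enzymes that cut peptides outside the cell, 1 was higher in tumours and 4 were lower, beside the 34.2% higher and 42.2% lower of all genes. Mme, or neprilysin, which degrades enkephalins and substance P, averaged 2.93 ± 0.54 in tumours (SD, n = 24) and 6.53 ± 0.97 in marrow (SD, n = 5), a difference of -3.70 (SE 0.30, limma adjusted p = 3.51e-12). Ace differed by -1.16 and Dpp4, which trims NPY, by -1.13. Ece1, an endothelin converting enzyme, was higher by 0.90.

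Of 35 other peptide precursors, 4 were higher in tumours and 23 lower, with a median difference of -0.29. Of the genes of low signal 60.8% were called lower, with a median of -0.26, and of all genes 42.2%. The 4 of smallest p were all lower: Tac2 (-2.94), the neurokinin B precursor, Prok2 (-2.27), which is made by granulocytes, Oxt (-0.88) and Sct (-0.68). The 4 that were higher were Adm (3.28), the adrenomedullin precursor, Pnoc (1.87), Pomc (1.47) and Nts (1.35), and of these Pnoc and Nts were named after their values were seen. By genotype none was called. Pomc averaged 6.45 ± 0.84 in deficient tumours (SD, n = 17) and 7.22 ± 1.01 in wild-type tumours (SD, n = 7), and Adm 7.59 ± 0.67 in deficient tumours and 8.22 ± 1.30 in wild-type tumours, each with a limma adjusted p of 0.9997.

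Markers of the noradrenergic fate were nearly all higher in tumours. Of 13 catecholamine and sympathoadrenal genes 12 were higher in tumours and 1, the noradrenaline transporter gene Slc6a2, was lower (-0.78) and is named after its value was seen. Chgb (8.79), Hand2 (7.27), Isl1 (8.60) and Ddc (8.10), which encodes the last enzyme of dopamine synthesis, had the smallest p. Among 6 cholinergic markers 2 were higher and 3 lower, beside the 34.2% and 42.2% of all genes, and Slc18a3, the vesicular acetylcholine transporter gene, averaged 3.16 ± 0.12 in tumours (SD, n = 24) and 3.49 ± 0.10 in marrow (SD, n = 5). Slc5a7 had the smallest p by genotype among them, with a difference of 0.23 between deficient and wild-type tumours (unadjusted p = 0.0102, limma adjusted p = 0.9997). Of the immediate early genes, all 8 had a lower mean in deficient tumours and none was called. Their median difference was -0.26, beside 0.004 over all genes, and the share of all genes with a lower mean was not counted. Fos gave the largest difference (-1.25, unadjusted p = 0.00466, limma adjusted p = 0.9997). It was the only 1 of the 8 with an unadjusted limma p under 0.05, beside 3.2% of all genes.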

How the data were processed

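Gene expression was measured on 29 Affymetrix arrays of mouse tumour and bone marrow RNA. Per the labels' protocols, Trizol was used to isolate RNA, and 100 ng of it went into biotinylated cRNA through 2 rounds of amplification. The authors deposited log2 values after RMA, made with Partek 6.6 per the submitters' processing notes; the range is 1.87 to 14.4, and the sources used here name no further step. RMA draws low signals together, so differences there are understated. Array depth has no read count, and the number of arrays limits the precision.

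Probe sets were named through the platform annotation: 34945 of 45101 had 1 symbol, 932 several, 9160 none listed and 64 were controls; 34741 were matched by Entrez identifier. The probe set of highest mean stood for each of 18193 genes. limma 3.58.1 (R 4.3.3) was fitted over all genes, with Benjamini-Hochberg adjustment and a threshold of 0.05, to tumours by genotype, to marrow by genotype, and to all 29 samples in a 4-group model for tissue and for the interaction. Title series and genotype were fitted together in tumours. Correlations used 100000 two-sided permutations (scipy 1.17.1). They were adjusted over 28 pairs, and over 136 relations with a gene list or with the 3′ to 5′ control difference. On simulated tumours with known changes, 93.3% of differences of 1 and 70.7% of differences of 0.5 were called, and in the tissue comparison 92.7% and 66.7%; in marrow by genotype 18% of differences of 1 and 74% of differences of 2 were called. These changes were in genes drawn from all genes, most of which vary less than Npy or Adcyap1. Many genes were changed at once in each simulation, with independent noise, which eases the adjusted threshold. In the real tumours no gene was called by genotype, so the simulated shares do not hold for a gene that changes alone.

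The named genes are the 8 peptide genes, Casp8, Mycn, Th and Dbh as checks, up to 4 genes of smallest p per list in tissue and in tumour genotype, and per peptide gene the 5 of highest r and, for the most variable, the 3 of lowest r, passing over predicted loci. The members and lists were chosen with earlier results of these data known. Alternatives tried were the mean of probe sets, a signal filter, repeated quantile normalization, median centring, a trended prior, array weights, blocks for title series, Xist as a covariate, and leaving out each sample. The proteins of the precursors were not analysed here.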

Additional observations from a re-analysis of the deposited data

Results flagged for a closer look

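In the 7 wild-type tumours the lowest Npy sample, wild-type tumour 1 at 7.3, stood apart from the other 6, which ran upwards from 10.29: its gap to the nearest was 0.674 of the range, above Dixon's critical value of 0.568. The lowest Dbh sample of that group, at 6.49, was the same tumour, with a gap of 0.569 of the range. Of 12 genes looked at in this group 2 stood apart in this way, and for a single gene chance alone gives about 1 in 20. The 12 genes were measured in the same tumours and some vary together (Npy with Dbh r 0.53 over the 24 tumours). Their count therefore cannot be set against that rate. Dbh passed narrowly, at 0.5685 against 0.568. The Npy and Dbh values come from 1 tumour, which also had the highest Tac1 (5.61) and the highest Casp8 (6.91) of all 24. Its marker means stood at the ends of the 24 tumours as well. It had the lowest chromaffin (7.78) and the lowest catecholamine and sympathoadrenal mean (9.31), and the highest fibroblast (9.57), macrophage (8.99) and T and B cell means (5.46). The part of these cells in its Npy and Dbh values was not tested.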

How the results depend on the processing

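No paired analysis was possible because the labels do not say which samples came from the same animal. Cartpt, Adcyap1 and Sst kept their direction and call between tumour and marrow in every alternative that measured them (Cartpt 5.6 to 5.84 and Adcyap1 2.13 to 2.54 when each sample was left out). With a signal filter at a mean of 5, 3 peptide genes were called between tissues (of fewer tested), with 83% of all genes tested, 0.0181% by marrow genotype and 0.172% by the interaction; leaving out each sample gave 4 to 6 peptide genes between tissues and 69.2% to 76.6% of all genes. By marrow genotype 0.011% of genes were called with the mean of probe sets and 0.456% in the 4-group model, against 0.022%. The interaction of genotype and tissue called 0.319% of genes, but 0.583% after repeated quantile normalization, 0.0715% with array weights, and 0.176% without wild-type marrow 1 to 2.32% without wild-type marrow 2. No peptide gene differed between title series with the filter, after repeated quantile normalization or with a trended prior (0 in each); Sst then gave 0.127 and 0.164.

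By genotype in tumours no peptide gene was called in any alternative, and the sign of small differences turned. In the lower title series alone, a choice made after seeing the data, Npy was 0.763, Gal 0.0717, Vip 0.119, Cartpt 0.0585 and Penk 0.0463, and in the higher series Sst was -0.0171. Sst was -0.00012 with arrays centred and -0.00134 with Xist as a covariate, and Penk 0.0316 with array weights. With array weights the difference of the genotype effect between the title series became 0.0586 for Penk and 0.005 for Sst. The correlation of Vip with Cartpt was -0.119 and of Penk with Sst -0.0301 in the lower series. When single samples were left out, tumour genotype differences ran from -0.125 to 0.133 for Penk, -0.0228 to 0.0451 for Sst and -0.0933 to 0.00977 for Vip. Marrow differences ran from -0.437 to 0.547 for Npy, -0.596 to 0.121 for Adcyap1, -0.403 to 0.102 for Gal and -0.0164 to 0.145 for Tac1, and interactions from -0.113 to 0.138 for Cartpt and -0.152 to 0.352 for Gal. With each tumour left out within the lower title series, also chosen after seeing the data, differences ran from -0.413 to 1.6 for Npy, -0.709 to 0.551 for Tac1 and -0.339 to 0.253 for Adcyap1. The cause was not tested. Of 426 values recomputed with all samples of their comparison or with a title series alone, 392 kept direction and call. The 2 marrow groups of 3 and 2 samples, and low signals of Vip, Tac1, Penk and Sst, limit what could be seen.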
